A study of Homo sapiens with 8 samples.

Results

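The genes described here are the protein-coding HOX genes of the human HOXA, HOXB, HOXC and HOXD clusters. They were found by symbol among the Ensembl identifiers of the gene table, and 38 of its 38592 genes are reported. RNA was sequenced from islet-like cells made from H1, a human embryonic stem cell line, and read counts per gene were compared between 4 genotypes and 2 vectors. The genotypes were wild type (WT) and knockouts (KO) of ISL1, PAX6 or PDX1, which encode transcription factors of the pancreatic islet. On day 11 of islet differentiation each culture was transduced to express ISL1 and blue fluorescent protein (these libraries are labelled ISL1 OE) or the fluorescent protein without ISL1 (labelled BFP). Cells were harvested on day 18.

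All 8 groups therefore carried a vector, and the BFP libraries of each genotype served as its control. There were 2 libraries in each of the WT groups and in PDX1 KO ISL1 OE, and 3 in each of the other 5 groups, described by the submitters as biological replicates. The sources used here do not state the number of clones per knockout line, so a difference between lines cannot be told apart from a difference between clones.

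HOX genes encode homeodomain transcription factors that give cells a position along the head-to-tail axis of the embryo. Within each cluster they lie in the order in which they are used: genes with low paralog numbers are active early and towards the head, and genes with high numbers late and towards the tail. HOX proteins bind DNA with PBX and MEIS cofactors, retinoic acid and caudal factors switch the clusters on, and Polycomb and Trithorax proteins hold them off or on. The foregut endoderm that forms the pancreas uses low-numbered HOX genes, while the mesenchyme around it uses higher-numbered ones. PDX1, 1 of the 3 factors deleted here, belongs to the ParaHox family, the closest relatives of HOX genes.

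Total counts per library ran from 40959445 to 66818593. Islet endocrine markers (10 genes, among them CHGA, INS, GCG and SST) were present in every library, with a summed level of 14160 to 162900 CPM (counts scaled to library size). ISL1 itself was at 61.6 to 84.0 CPM in the 6 ISL1 KO libraries and at 115.7 to 484.1 CPM in the other 15. In the libraries labelled ISL1 OE, the gene count of ISL1 was not separated from that of the BFP libraries of the same genotype (313.4 to 326.2 against 284.8 to 484.1 CPM in WT), so this check does not show the vector's transcript. PAX6 and PDX1 transcripts were still counted in the lines labelled as their knockouts, at 93.5 to 285.9 CPM and 71.6 to 126.1 CPM. The comparisons below come from 1 model of all 21 libraries, fitted to 22184 genes, and a gene is called where its Benjamini-Hochberg adjusted p from edgeR's quasi-likelihood test was under 0.05.

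The remaining check concerns replicates. PAX6 KO ISL1 OE replicate 3 correlated with its partners at r = 0.926 and 0.932 across genes, and PDX1 KO ISL1 OE replicate 4 with its partner at 0.899, against 0.991 or more for every other pair within a group. They had the highest HOXB2 levels of all libraries. These libraries stand apart, so results are also given for the reduced set of 19 libraries without them, in which 22990 genes were tested. There a PDX1 KO ISL1 OE group of 1 library is assumed to vary like the other groups. Comparisons that use neither PAX6 KO ISL1 OE nor PDX1 KO ISL1 OE have the same libraries in both sets. For them only the genes tested, the scaling and the shared estimate of spread differ. In ISL1 KO against WT with BFP, the share of all genes called rose from 6.53% to 28.5%. A call that holds in the reduced set is therefore not independent support.

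The promoter windows of HOXD1 and HOXA2 are shown because these genes carried the differences that held in most fits. RefSeq (GRCh38.p14) held promoter windows for 20 of the 38 members, and those shown are limited to the bases before the GENCODE start of the gene, 5′ to 3′, with CG dinucleotides in capitals. The HOXD1 window lies at chr2:176188418-176188578 on the plus strand, and the HOXA2 window at chr7:27102812-27102933 on the minus strand.
HOXD1: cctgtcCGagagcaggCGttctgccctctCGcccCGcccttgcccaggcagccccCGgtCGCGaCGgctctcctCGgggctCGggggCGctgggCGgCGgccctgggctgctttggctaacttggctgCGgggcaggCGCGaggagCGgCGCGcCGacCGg
HOXA2: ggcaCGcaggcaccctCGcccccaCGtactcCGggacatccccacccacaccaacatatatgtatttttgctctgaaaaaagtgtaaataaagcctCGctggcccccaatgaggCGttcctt
The HOXD1 window of 161 bases held 21 CG dinucleotides and 77.6% G or C. For comparison, all 35116 promoter windows were cut to their first 161 bases, which need not end at the start of their gene. Of these, 8.1% held at least as many CG dinucleotides. The shorter HOXA2 window held 6 CG dinucleotides and 54.1% G or C, and 41.9% of windows cut to its length in the same way held at least as many. Neither window held TAAT or TGATNNAT on either strand, letters that homeodomain and PBX-HOX complexes can bind. In the windows cut to 161 bases TAAT was present in 39.3% of all promoters and TGATNNAT in 4.49%. Of the 16 annotated transcripts of HAGLR, a non-coding RNA of the opposite strand, 5 start inside the HOXD1 window, and the HAGLR gene shares 380 bases with HOXD1.

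The cells used the low-numbered end of the clusters. Of the 38 members, 14 reached a mean of 1 CPM in at least 1 group: HOXA2, HOXA3, HOXA4 and HOXA5 of the HOXA cluster, HOXB2, HOXB3, HOXB5, HOXB6, HOXB7 and HOXB13 of HOXB, HOXC4, HOXC5 and HOXC8 of HOXC, and HOXD1 alone of HOXD. The other 24 stayed below 1 CPM in every group. On the deposited TPM scale, which corrects for transcript length as well as library size, the 14 members of paralog groups 1 to 5 held between 91.5% and 99.3% of all HOX transcripts reported here, with a median of 96.6% over 21 libraries. The 12 members of groups 6 to 9 held 0.474% to 8.29%, and the 12 of groups 10 to 13 held 0.0862% to 1.75%.

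HOXB2, a regulator of hindbrain segments that is also used in foregut endoderm, had the highest median level over all libraries. It made up between 10.2% (ISL1 KO ISL1 OE replicate 1) and 56.2% (PDX1 KO ISL1 OE replicate 4) of HOX TPM, with a median of 43.7%. HOXA3, HOXA4 and HOXA5 followed, at medians of 16.4, 12.7 and 11.2 TPM over the 21 libraries, against 41.9 TPM for HOXB2. HOXA2 had a median of 9.70 TPM, HOXC4 of 4.22, HOXB3 of 3.52, HOXC5 of 2.56 and HOXD1 of 2.52 TPM. ISL1 KO had another order: HOXA3 led there, at 18.4 ± 3.48 TPM (SD, n = 3) with BFP and 33.5 ± 8.91 (n = 3) with the ISL1 vector, against 12.95 ± 1.52 and 13.03 ± 2.45 TPM for HOXB2.

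**Figure D1:**
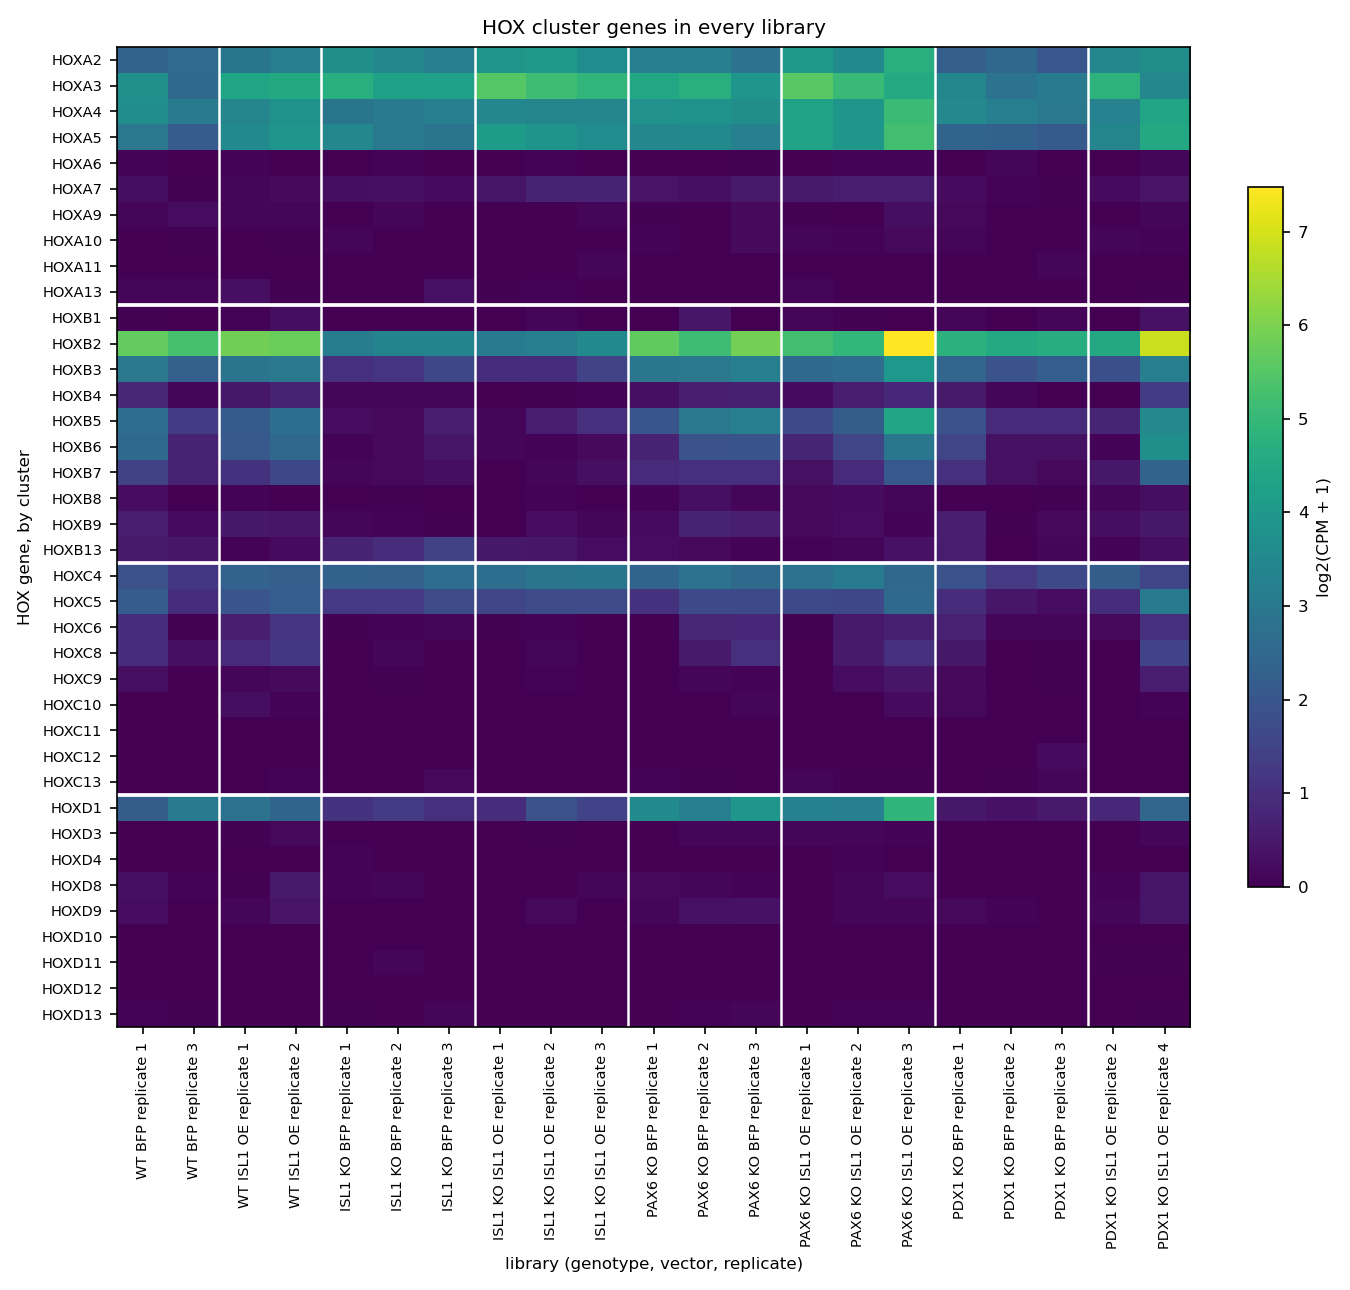
Level of each of the 38 HOX genes (rows, ordered by cluster and paralog number) in each of the 21 libraries (columns, by group), coloured by log2(CPM + 1), with white lines between clusters and between groups. Bright rows are HOXA2 to HOXA5, HOXB2, HOXB3, HOXB5, HOXC4, HOXC5 and HOXD1, and the HOXB2 row is darkest in the 6 ISL1 KO libraries.

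In all, 23 members had enough counts to be tested, 6 of HOXA, 9 of HOXB, 5 of HOXC and 3 of HOXD. The 15 that were not tested (HOXA6, HOXA9, HOXA10, HOXA11, HOXB8, HOXC10, HOXC11, HOXC12, HOXC13, HOXD3, HOXD4, HOXD10, HOXD11, HOXD12 and HOXD13) had at most 14 counts in any library. HOXC11 and HOXD12 had no count in any library, where 3 counts would correspond to 0.0732 CPM in the shallowest and 0.0449 CPM in the deepest library. The remaining tested members below 1 CPM in every group were HOXA7, HOXA13, HOXB1, HOXB4, HOXB9, HOXC6, HOXC9, HOXD8 and HOXD9. Because members that passed the filter through 1 high group had to differ, counts of called members below are descriptions. The chemistry is not stated to mark strand. Some members, among them HOXA3, HOXB3, HOXB7, HOXC4 and HOXC6, are annotated over neighbouring members, so reads in shared stretches cannot be told apart.

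HOXB2 (chromosome 17, 48540894 to 48544989, minus strand, GRCh38) and its neighbour HOXB3 (48548870 to 48604912) were lower in ISL1 KO cells than in WT. HOXB2 was at 50.3 and 38.4 CPM in the WT BFP libraries, and at 7.84, 9.34 and 9.45 CPM in the ISL1 KO BFP libraries. In libraries labelled ISL1 OE it was at 57.5 and 54.1 CPM in WT and at 7.22, 8.26 and 10.6 CPM in ISL1 KO. The groups did not overlap under either vector, and the 6 ISL1 KO libraries were the lowest 6 of the 21. The log2 difference was -2.32 ± 0.62 (SE) in BFP libraries (4.99-fold, adjusted p = 0.0346 by edgeR's quasi-likelihood test) and -2.68 ± 0.63 in ISL1 OE libraries (6.41-fold, adjusted p = 0.0223).

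HOXB3 was at 6.75 and 3.90 CPM in WT BFP and at 1.002, 1.203 and 2.05 CPM in ISL1 KO BFP. With the ISL1 vector the WT libraries were at 6.36 and 7.03 CPM and the ISL1 KO libraries at 0.912, 0.951 and 1.92 CPM. Again no ISL1 KO library reached the lowest WT library. The log2 difference was -1.91 ± 0.52 in BFP libraries (adjusted p = 0.0375) and -2.41 ± 0.52 in ISL1 OE libraries (adjusted p = 0.015), both by edgeR. These calls ended when single libraries were left out of the full set: HOXB2 lost its call without any 1 of the 5 BFP libraries compared (adjusted p 0.0961 to 0.202), and HOXB3 likewise (0.0525 to 0.327). In the reduced set, HOXB2 was at -2.33 ± 0.20 (adjusted p = 6.43e-07) and HOXB3 at -1.91 ± 0.34 (adjusted p = 0.000553) in BFP libraries, and both kept their call without any 1 of the 5 libraries (highest adjusted p 1.71e-05 and 0.0192). In libraries labelled ISL1 OE, HOXB2 lost its call without any 1 of the 5 libraries (0.0679 to 0.117) and HOXB3 without any but ISL1 KO ISL1 OE replicate 3 (highest adjusted p = 0.11), and both held in the reduced set.

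In the BFP comparison of ISL1 KO with WT, 4 of the 23 tested members were called, 1 higher and 3 lower (17.4%), against 6.53% of all genes tested (2.05% higher and 4.48% lower). Their median log2 difference was -2.23, against 0.03 over all genes. In the ISL1 OE comparison 2 members were called, both lower (8.7%), against 4.13% of all genes (2.93% lower). Of the reduced set, 11 of 25 tested members were called under each vector (44%), against 28.5% of all genes for BFP (13.3% higher and 15.1% lower) and 23.7% for ISL1 OE (10.6% higher and 13.1% lower). The reduced-set calls in BFP libraries comprised 3 higher members (HOXA2, HOXA3 and HOXC4) and 8 lower ones (HOXB2, HOXB3, HOXB5, HOXB6, HOXB7, HOXB9, HOXC8 and HOXD1). Markers of other cell types also differed between these groups, not all in 1 direction. The islet endocrine sum was 27750 to 35450 CPM in ISL1 KO BFP and 67130 to 82750 CPM in WT BFP. Of its 10 markers, 0 were called higher and 2 lower in the full set, and 1 higher and 5 lower in the reduced set. The sum of 8 liver markers was 6739 to 9352 CPM against 17900 to 19610 CPM, with 4 of 8 called lower in the full set and 8 of 8 in the reduced set. The 6 endothelial markers summed to 4.17 to 6.77 CPM against 14.5 to 24.8 CPM, with EMCN at 0 in both groups. Of the 5 tested, 1 was called lower in the full set and 2 in the reduced set. The endothelial sum was 2.26 to 4.90 CPM in PAX6 KO BFP and 1.51 to 5.89 CPM in PDX1 KO BFP. Of 13 neural markers, 3 were called higher and 0 lower in ISL1 KO BFP against WT BFP in the full set. Of 9 gut markers tested, 2 were higher and 2 lower there, against 6.53% of all genes called. The reduced set called 5 neural markers higher and 3 lower, and 3 of 10 gut markers higher and 4 lower, against 28.5%. The islet sum in the BFP libraries of PAX6 KO was 19140 to 30190 CPM and in those of PDX1 KO 57190 to 63570 CPM, and their liver sums were 6010 to 7638 and 5022 to 5479 CPM. The part of these markers in the HOX differences was not tested.

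PAX6 KO and PDX1 KO cells kept more HOXB2 than ISL1 KO cells. HOXB2 was at 49.7, 34.7 and 58.8 CPM in PAX6 KO BFP, a range that includes both WT BFP libraries. The difference of PAX6 KO from WT was 0.11 ± 0.62 on the log2 scale (adjusted p = 0.955 by edgeR), which does not show that the lines are alike. PDX1 KO BFP was intermediate at 26.9, 22.6 and 24.02 CPM, below both WT libraries, with a difference from WT of -0.85 ± 0.62 that did not pass the test (adjusted p = 0.447). That difference in the reduced set was -0.88 ± 0.20 and passed it (adjusted p = 0.00269), though not without WT BFP replicate 1 (adjusted p = 0.0685).

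Directly compared, PAX6 KO BFP exceeded ISL1 KO BFP by 2.43 ± 0.59 for HOXB2 (adjusted p = 0.032), 2.34 ± 0.49 for HOXB3 (0.0125) and 4.34 ± 1.10 for HOXB5 (0.0425) on the log2 scale by edgeR. HOXB5, the next abundant member of the cluster, was at 2.99, 6.74 and 8.42 CPM in PAX6 KO BFP and at 0.178, 0.144 and 0.559 CPM in ISL1 KO BFP. WT BFP was at 5.40 and 1.48 CPM and PDX1 KO BFP at 2.66, 0.865 and 0.879 CPM, all above the ISL1 KO libraries. Together with HOXD1, 4 of 23 members were called in this comparison, all higher in PAX6 KO (17.4%), against 2.78% of all genes (1.79% higher), and 10 of 25 in the reduced set (40%, 9 higher and 1 lower), against 10.7% (5.89% higher and 4.79% lower). All 4 calls held in the reduced set without any 1 of the 6 libraries, with a highest adjusted p of 0.00985 for HOXB5. In the full set, HOXB2 kept its call without 1 of the 6 libraries in 1 case, HOXB3 in 4, HOXB5 in none and HOXD1 in all 6.

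**Figure D2:**
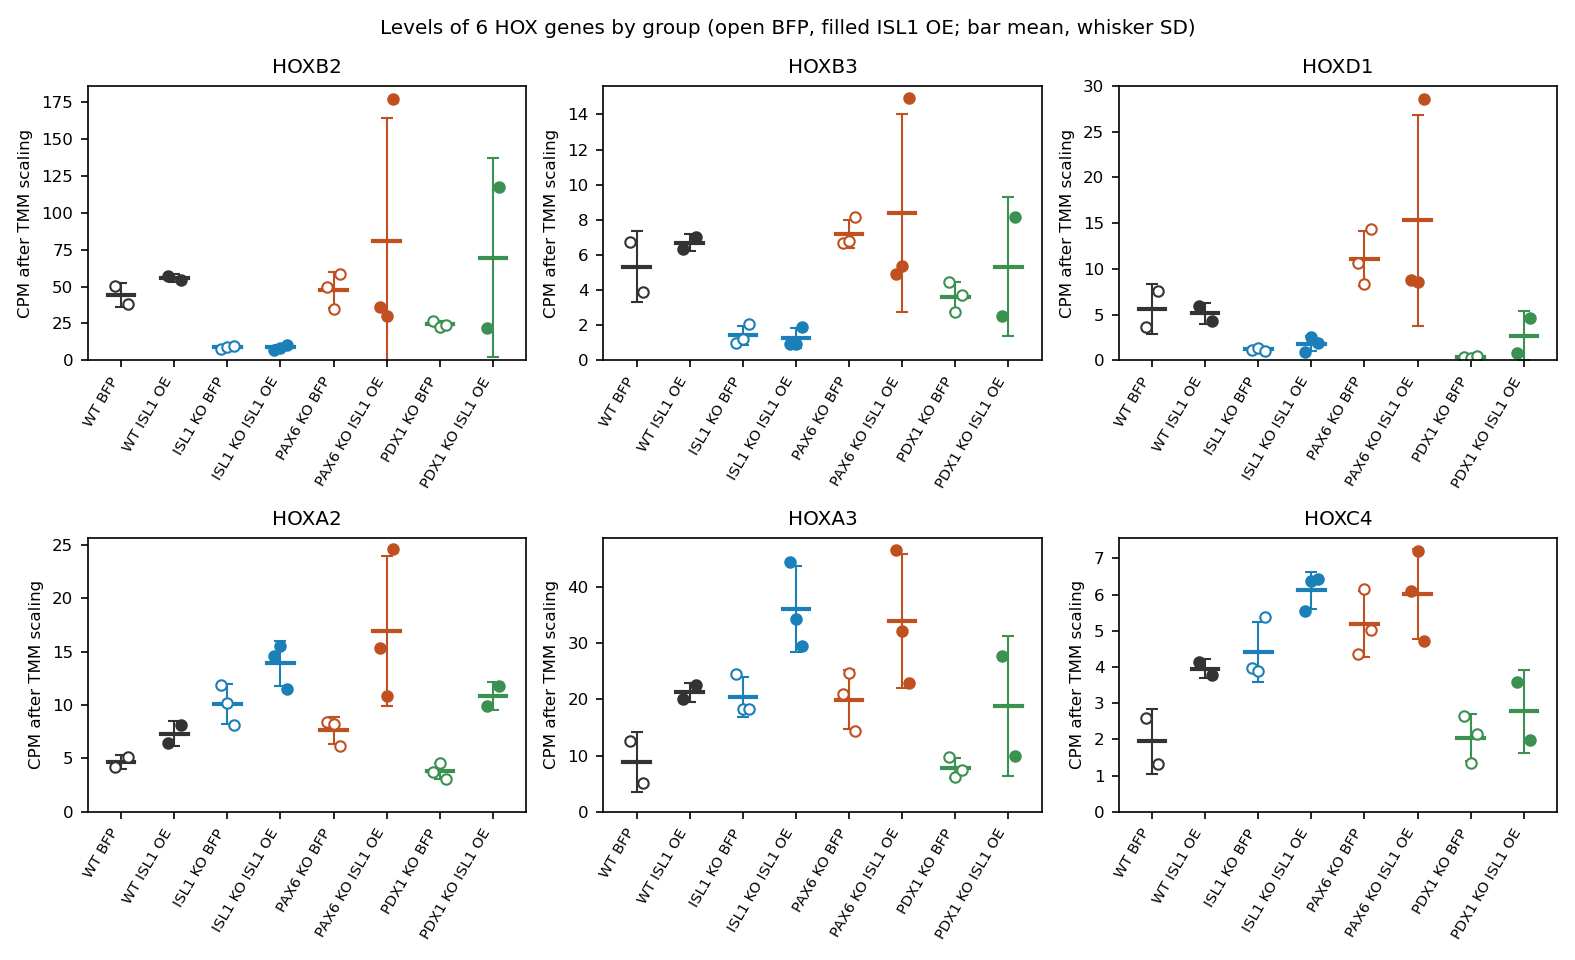
CPM after TMM scaling of HOXB2, HOXB3, HOXD1, HOXA2, HOXA3 and HOXC4 in the 8 groups, with 1 point per library (open for BFP, filled for ISL1 OE), a bar at the mean and a whisker of 1 SD (n = 2 or 3) that is cut at 0. HOXB2 lies between 7.22 and 10.6 CPM in ISL1 KO and at 21.9 CPM or more elsewhere, and the 2 libraries that stand apart give the high HOXB2 points at 177.1 and 117.3 CPM.

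HOXD1, the only member of its cluster above 1 CPM, was separated between all lines in BFP libraries. It was at 3.65 and 7.58 CPM in WT BFP, at 1.15, 1.40 and 1.05 CPM in ISL1 KO BFP, at 10.6, 8.36 and 14.4 CPM in PAX6 KO BFP, and at 0.385, 0.283 and 0.420 CPM in PDX1 KO BFP. The 4 BFP groups did not overlap: every PAX6 KO library was above every WT library, every ISL1 KO library was below WT, and every PDX1 KO library was below ISL1 KO.

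The HOXD1 difference of PDX1 KO from WT was -3.95 ± 0.66 on the log2 scale (15.44-fold, adjusted p = 0.00143 by edgeR), and that of ISL1 KO was -2.23 ± 0.61 (4.68-fold, adjusted p = 0.0385). PAX6 KO exceeded WT by 0.99 ± 0.62, which did not pass the test (adjusted p = 0.418) but did in the reduced set (1.0 ± 0.36, adjusted p = 0.0447), where the call ended without PAX6 KO BFP replicate 1 or 3 or WT BFP replicate 1 (highest adjusted p = 0.357). PAX6 KO exceeded ISL1 KO by 3.21 ± 0.59 (adjusted p = 0.00512), and PDX1 KO lay below PAX6 KO by -4.93 ± 0.66 (30.59-fold, adjusted p = 0.000304). PDX1 KO lay below ISL1 KO by -1.72 ± 0.61 (adjusted p = 0.114), called in the reduced set at -1.74 ± 0.38 (adjusted p = 0.00309).

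The calls of PDX1 KO against WT, PAX6 KO against ISL1 KO and PDX1 KO against PAX6 KO held in BFP libraries without any 1 library. That of ISL1 KO against WT ended in the full set without any 1 of its 5 libraries (adjusted p 0.0713 to 0.35) and held in each such fit of the reduced set (highest adjusted p = 0.0101). In PDX1 KO against WT with BFP, HOXD1 was the only member called, 1 of 23 (4.35%) against 11.4% of all genes (6.84% lower), and 3 of 25 in the reduced set (12%, HOXB2, HOXC5 and HOXD1, all lower) against 33.3% (17.5% lower). With the ISL1 vector, HOXD1 was at 5.92 and 4.33 CPM in WT and at 0.812 and 4.58 CPM in PDX1 KO, where the higher value belongs to replicate 4. No member was called there in the full set, against 0.78% of all genes by edgeR. At an unadjusted p under 0.05 there were 0 of 23, against 17.1% of all genes, and DESeq2 called 0, against 3.07%. The reduced set gave 3 calls of 25 (12%, against 7.9% of all genes, 3.68% lower), HOXB2, HOXB6 and HOXD1, all lower.

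HAGLR, some of whose transcripts start in the HOXD1 window printed above, followed the same order in BFP libraries. Its mean was 9.33 ± 2.16 CPM (SD, n = 3) in PAX6 KO, 4.10 ± 1.86 (n = 2) in WT, 1.64 ± 0.322 (n = 3) in ISL1 KO and 0.608 ± 0.275 (n = 3) in PDX1 KO. It was called in 5 of the 6 BFP comparisons between lines, all but PAX6 KO against WT, from -1.32 ± 0.38 (ISL1 KO against WT, adjusted p = 0.0444) to -3.94 ± 0.38 (PDX1 KO against PAX6 KO, adjusted p = 2.91e-05 by edgeR). Reads in the 380 bases that HAGLR shares with HOXD1 could be counted to either gene.

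HOXA2, a selector of hindbrain and pharyngeal identity, rose in ISL1 KO cells where HOXB2 fell. It was at 4.21 and 5.11 CPM in WT BFP and at 11.9, 10.2 and 8.16 CPM in ISL1 KO BFP. All 3 ISL1 KO libraries were above both WT libraries. The log2 difference was 1.11 ± 0.31 (2.17-fold, adjusted p = 0.0409 by edgeR). It ended without any 1 of the 5 libraries (adjusted p 0.0577 to 0.308) and with the replicate block (adjusted p = 0.0529), and it held in the reduced set (adjusted p = 0.00233) and in each of its 5 fits without 1 library.

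HOXA2 was at 8.46, 8.26 and 6.16 CPM in PAX6 KO BFP and at 3.76, 4.59 and 3.12 CPM in PDX1 KO BFP. PDX1 KO lay below ISL1 KO by -1.40 ± 0.27 on the log2 scale (2.63-fold, adjusted p = 0.00563 by edgeR), a call that held without any 1 of the 6 libraries. With the ISL1 vector, PAX6 KO was at 15.3, 10.8 and 24.6 CPM against 6.47 and 8.13 CPM in WT. That difference was 1.21 ± 0.31 (adjusted p = 0.0338), and 0.85 ± 0.25 (adjusted p = 0.0286) in the reduced set. The call ended in the full set without PAX6 KO ISL1 OE replicate 3 or either WT library (highest adjusted p = 0.322). HOXA2 was the only member called of 23 (4.35%), against 4.26% of all genes (1.38% higher). Without the libraries that stand apart, HOXA2 and HOXB2 were called (8%, against 14.5% of all genes, 5.31% higher and 9.15% lower), with HOXB2 at -0.74 ± 0.22 (adjusted p = 0.0328) where the full set gave 0.54 ± 0.63.

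HOXA3, which patterns pharyngeal organs, was at 12.6 and 5.05 CPM in WT BFP, 24.5, 18.4 and 18.3 in ISL1 KO BFP, 20.9, 24.6 and 14.3 in PAX6 KO BFP and 9.68, 6.26 and 7.52 in PDX1 KO BFP. PDX1 KO libraries lay within the WT range and below every ISL1 KO and PAX6 KO library. The difference of PDX1 KO from ISL1 KO was -1.38 ± 0.38 (adjusted p = 0.0419), and that from PAX6 KO was -1.35 ± 0.38 (adjusted p = 0.0615), by edgeR. The first was lost without any 1 of the 6 libraries in the full set and held without each in the reduced set (highest adjusted p = 0.0131). Of its transcripts, the one at 27107012 to 27140219 on chromosome 7 held 57.7% of the gene's deposited TPM, and a shorter one at 27110479 to 27113845 held 30.6%.

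HOXA5, used in lung and gut mesenchyme and foregut, was at 6.83 and 3.43 CPM in WT BFP, 9.99, 7.16 and 6.35 in ISL1 KO BFP, 10.02, 11.1 and 8.62 in PAX6 KO BFP and 4.33, 4.04 and 3.30 in PDX1 KO BFP. PDX1 KO lay below PAX6 KO by -1.35 ± 0.36 on the log2 scale (adjusted p = 0.0465 by edgeR), which ended with the replicate block (adjusted p = 0.0577) and without any 1 of the 6 libraries. The same difference in the reduced set was -1.38 ± 0.24 (adjusted p = 0.000803) and held without each library. HOXA4, was at 11.6 and 7.66 CPM in WT BFP, 6.55, 7.45 and 8.16 in ISL1 KO BFP, 12.8, 13.01 and 12.02 in PAX6 KO BFP and 10.6, 8.34 and 7.01 in PDX1 KO BFP. It had no call in the full set. In the reduced set PAX6 KO exceeded ISL1 KO by 0.79 ± 0.18 (adjusted p = 0.00945 by edgeR), where the full set gave 0.77 ± 0.31 (adjusted p = 0.299), and the call held in 5 of 6 fits without 1 library (highest adjusted p = 0.0613).

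HOXC4, the lowest-numbered gene of its cluster, was at 2.58 and 1.32 CPM in WT BFP, 3.96, 3.90 and 5.38 in ISL1 KO BFP, 4.36, 6.16 and 5.02 in PAX6 KO BFP and 2.66, 1.35 and 2.14 in PDX1 KO BFP. ISL1 KO and PAX6 KO libraries were all above the WT and PDX1 KO libraries. PAX6 KO exceeded WT by 1.40 ± 0.36 on the log2 scale (2.64-fold, adjusted p = 0.0254 by edgeR), the only member called of 23 (4.35%) against 6.65% of all genes (2.41% higher). That call held in the full set without WT BFP replicate 1 and ended without each of the other 4 libraries (highest adjusted p = 0.267), and it held in all 5 such fits of the reduced set (highest adjusted p = 0.0449). PDX1 KO lay below ISL1 KO by -1.11 ± 0.31 (adjusted p = 0.0417, and 0.0594 with the replicate block) and below PAX6 KO by -1.34 ± 0.31 (adjusted p = 0.0202). In the full set these calls held in 1 and 2 of 6 fits without 1 library (highest adjusted p 0.194 and 0.106), and in the reduced set in all 6 (0.0231 and 0.00866). The transcript that starts at 54053877 on chromosome 12, after the HOXC5 gene, held 97.0% of the gene's TPM.

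HOXC5, the neighbour of HOXC4, was at 3.53 and 0.961 CPM in WT BFP, 1.36, 1.38 and 2.27 in ISL1 KO BFP, 1.15, 2.198 and 2.21 in PAX6 KO BFP and 0.972, 0.362 and 0.180 in PDX1 KO BFP. PDX1 KO lay below every ISL1 KO and PAX6 KO library and overlapped WT. The difference of PDX1 KO from WT was -2.16 ± 0.74 (adjusted p = 0.0707) in the full set and -2.19 ± 0.54 (adjusted p = 0.00492 by edgeR) in the reduced set, where it held in 4 of 5 fits without 1 library (highest adjusted p = 0.328).

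In PAX6 KO against WT with BFP, 5 of 25 members were called in the reduced set (20%, against 28.8% of all genes, 13.9% higher), HOXA2, HOXA3, HOXA5, HOXC4 and HOXD1, all higher. In PDX1 KO against ISL1 KO with BFP, 3 of 23 members were called, all lower (13%), against 5.71% of all genes (3.32% lower), and in the reduced set 10 of 25 (40%, 3 higher and 7 lower), against 26.1% (12.6% higher and 13.5% lower). The 3 higher members there were HOXB2, HOXB3 and HOXB5. In PDX1 KO against PAX6 KO, 3 of 23 were called, all lower (13%), against 3.62% (1.7% lower), and in the reduced set 11 of 25 (44%), all lower, against 20.1% (10.4% lower). These comparisons share libraries, so their calls are not independent of each other.

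**Figure D3:**
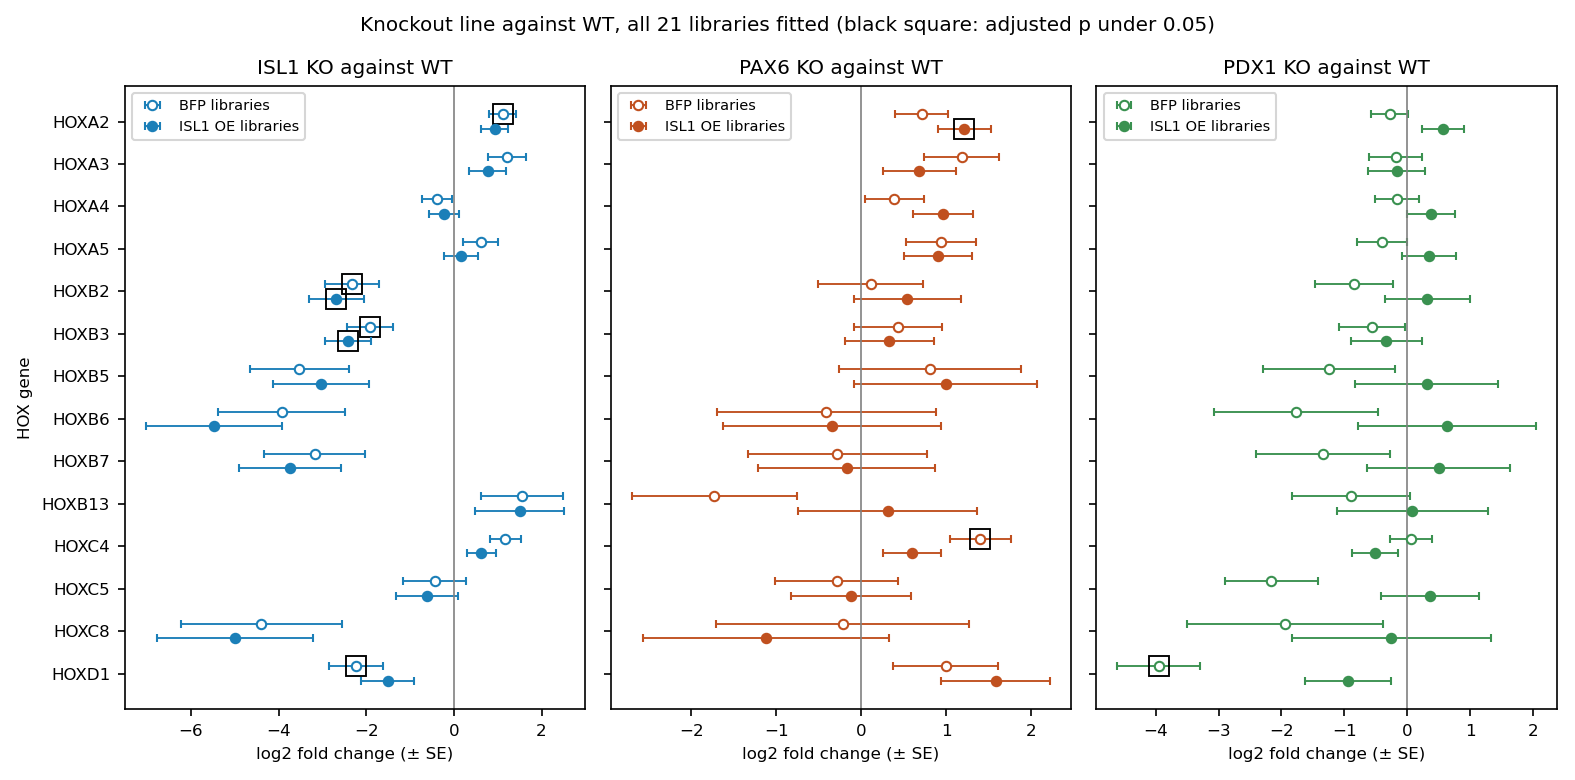
log2 fold change (± SE) of each knockout line against WT for the 14 members that reached 1 CPM in a group, in BFP libraries (open) and in ISL1 OE libraries (filled), from the fit of all 21 libraries; black squares mark an adjusted p under 0.05. In ISL1 KO, HOXB2, HOXB3, HOXB5, HOXB6, HOXB7, HOXC8 and HOXD1 lie left of 0 under both vectors, with HOXA2 and HOXA3 right of 0.

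Summed over each cluster, HOXA genes took a larger share in ISL1 KO libraries than in those of the other lines. HOXA genes made up 66.9% ± 5.16 (SD, n = 3) of HOX TPM in ISL1 KO BFP and 74.6% ± 6.22 (n = 3) in ISL1 KO ISL1 OE. In WT BFP they made up 26.9% ± 0.570 (n = 2), with 34.3% ± 7.06 (n = 3) for PAX6 KO BFP and 38.4% ± 4.10 (n = 3) for PDX1 KO BFP. With the ISL1 vector the share was 32.4% ± 3.71 (n = 2) in WT, 45.7% ± 15.1 (n = 3) in PAX6 KO and 41.6% ± 24.1 (n = 2) in PDX1 KO. The highest libraries of PAX6 KO and PDX1 KO, at 57.4% and 58.6%, came near the lowest ISL1 KO library at 62.4%. HOXB genes held 21.8% ± 3.45 in ISL1 KO BFP and 63.4% ± 0.457 in WT BFP. The summed HOX level was 71.4 ± 1.004 TPM in ISL1 KO BFP, 71.3 ± 13.8 in PDX1 KO BFP, 97.7 ± 31.0 in WT BFP and 166 ± 5.63 in PAX6 KO BFP.

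Some HOX genes of the trunk, which are known from mesenchyme around the gut, varied inside the WT, PAX6 KO and PDX1 KO BFP groups. There they ran along with COL3A1, 1 of the 11 mesenchyme markers used here. HOXB6 was at 4.90 and 0.632 CPM in WT BFP, 0.0485, 0.128 and 0.359 in ISL1 KO BFP, 0.686, 2.797 and 2.81 in PAX6 KO BFP and 1.94, 0.252 and 0.260 in PDX1 KO BFP. HOXB7 was at 1.77 and 0.632 CPM in WT BFP, 0.0647, 0.128 and 0.201 in ISL1 KO BFP, 0.890, 1.035 and 1.055 in PAX6 KO BFP and 1.045, 0.268 and 0.120 in PDX1 KO BFP. ISL1 KO lay below WT and PAX6 KO in every library for both genes. HOXC8 was at 0.913 and 0.247 CPM in WT BFP, 0, 0.0802 and 0 in ISL1 KO BFP, 0.0186, 0.469 and 1.021 in PAX6 KO BFP and 0.404, 0.0157 and 0.0400 in PDX1 KO BFP. HOXC6 had 48 and 1 counts in the WT BFP replicates 1 and 3, 1, 46 and 46 counts in PAX6 KO BFP, and 34, 4 and 4 counts in PDX1 KO BFP. COL3A1, a fibrillar collagen of mesenchyme, was at 758.1 and 114.1 CPM, at 81.2, 499.7 and 522.2 CPM, and at 455.2, 41.1 and 38.5 CPM in the same libraries. Within each of these groups the libraries high in HOXC6 were the ones high in COL3A1.

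The summed level of 8 members used in the trunk, HOXB4, HOXB5, HOXB6, HOXB7, HOXB9, HOXC6, HOXC8 and HOXC9, which were chosen after their values were seen, was 15.4 and 3.27 CPM in WT BFP and 9.93 and 15.9 CPM in WT ISL1 OE. It was 5.01, 13.1 and 15.2 CPM in PAX6 KO BFP and 7.80, 1.56 and 1.54 CPM in PDX1 KO BFP. In this sum ISL1 KO libraries were the lowest, at 0.485, 0.674 and 1.29 CPM with BFP and 0.282, 1.09 and 1.52 CPM with the ISL1 vector. HOXA4, HOXA5, HOXC4 and HOXC5, of the same paralog groups as HOXB4 and HOXB5, were left out of it. Of these, ISL1 KO BFP had higher means than WT BFP for HOXA5 (7.83 against 5.13 CPM) and HOXC4 (4.41 against 1.95). Its means were lower for HOXA4 (7.38 against 9.62) and HOXC5 (1.67 against 2.25). Members of the sum that fell in ISL1 KO BFP against WT in the reduced set were HOXB5 (-3.54 ± 0.78, adjusted p = 0.00291 by edgeR), HOXB6 (-3.94 ± 0.97, 0.00655), HOXB7 (-3.18 ± 0.87, 0.012), HOXB9 (-2.85 ± 0.99, 0.0413) and HOXC8 (-4.41 ± 1.54, 0.0414). These calls ended without WT BFP replicate 1, the BFP library with most COL3A1. That fit leaves 1 WT BFP library, so it cannot connect the loss of the calls with the COL3A1 level. HOXA7 is not in this sum and ran the other way in libraries labelled ISL1 OE, with 21, 45 and 40 counts in ISL1 KO and 5 and 7 in WT. Its log2 difference there was 2.31 ± 0.68 (adjusted p = 0.0676) in the full set and 2.31 ± 0.67 (adjusted p = 0.0195) in the reduced set, where the call held in 2 of 5 fits without 1 library (highest adjusted p = 0.131). With BFP, HOXA7 was at 13, 14 and 11 counts in ISL1 KO and 11 and 1 in WT.

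The 11 mesenchyme markers summed to 489.0 to 641.4 CPM in ISL1 KO BFP and 506.0 to 548.8 in ISL1 KO ISL1 OE, against 536.8 to 1437 in WT BFP and 1693 to 2005 in WT ISL1 OE. They summed to 368.9 to 1092 in PAX6 KO BFP and 264.0 to 918.8 in PDX1 KO BFP, and none of the 11 was at 0 throughout a group. In ISL1 KO against WT with BFP none was called in either set, against 6.53% and 28.5% of all genes. The median log2 difference of these markers there was 0.07 in the full set. With ISL1 OE none was called in the full set, against 4.13% of all genes. In the reduced set 2 were higher and 5 lower there, against 23.7%. Their part in the HOX differences was not tested, and in bulk RNA fewer mesenchymal cells and less RNA per cell cannot be told apart. Single libraries follow as examples, and how trunk members relate to COL3A1 was not tested. At 174.2 CPM of COL3A1, ISL1 KO BFP replicate 3 had 1.29 CPM of trunk members, while WT BFP replicate 3 had 3.27 CPM at 114.1. PAX6 KO ISL1 OE replicates 1 and 2 had 3.53 and 8.16 CPM of trunk members at 78.5 and 552.7 CPM of COL3A1. PAX6 KO ISL1 OE replicate 3 had 33.3 CPM of trunk members at 51.2 CPM of COL3A1, and PDX1 KO ISL1 OE replicate 4 had 32.0 CPM at 96.0. The 11 mesenchyme markers summed to 424.6 CPM in the former and to 900.6 CPM in the latter, close to the 918.8 CPM of PDX1 KO BFP replicate 1, which had 7.80 CPM of trunk members.

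**Figure D4:**
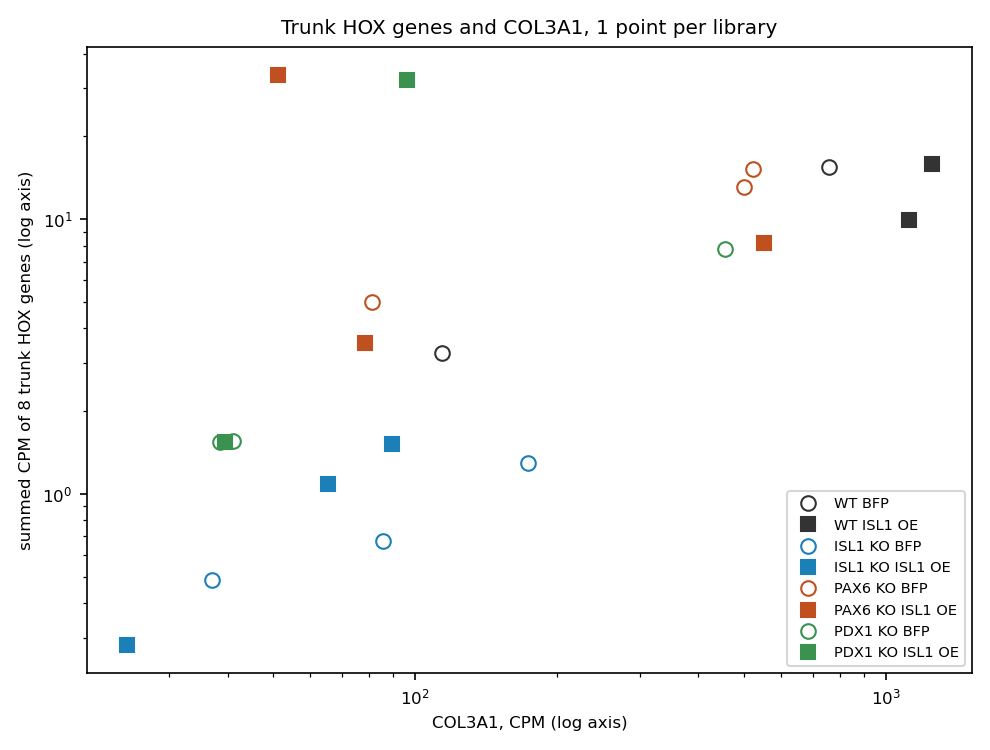
Summed CPM of 8 trunk HOX genes, chosen after their values were seen, against CPM of COL3A1. Both axes are logarithmic, with 1 point per library (open circles BFP, filled squares ISL1 OE, colours by genotype). ISL1 KO libraries lie between 0.282 and 1.52 CPM, and the 2 libraries that stand apart lie at 33.3 and 32.0 CPM, above the others with as much COL3A1.

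HOXB13, a tail-end gene of the HOXB cluster, ran against this pattern. It was at 0.679, 0.947 and 1.81 CPM in ISL1 KO BFP, at 0.186, 0.113 and 0.0502 in PAX6 KO BFP and at 0.514, 0.0157 and 0.0999 in PDX1 KO BFP, where the WT BFP libraries were at 0.417 and 0.357. All ISL1 KO BFP libraries were the highest of these. Within the reduced set PAX6 KO lay below ISL1 KO by -3.27 ± 0.77 (adjusted p = 0.0102) and PDX1 KO by -2.48 ± 0.72 (adjusted p = 0.0184) by edgeR. The first call ended without PAX6 KO BFP replicate 3 (adjusted p = 0.0546), and the second without ISL1 KO BFP replicate 3 or PDX1 KO BFP replicate 2 or 3 (highest adjusted p = 0.0783).

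Libraries labelled ISL1 OE were compared with BFP libraries of the same genotype. Levels of some markers of other cells also differed between vectors. The 7 pluripotency markers summed to 81.5 to 91.6 CPM against 31.0 to 32.4 CPM in WT. In ISL1 KO they summed to 102.6 to 120.4 CPM against 30.5 to 32.8 CPM. Their sums were 66.1 to 111.3 against 53.8 to 55.5 CPM in PAX6 KO. They overlapped in PDX1 KO, at 25.9 to 56.6 against 16.7 to 26.5 CPM. Of the 6 tested, none was called in WT or PAX6 KO in the full set. There 2 were called higher in ISL1 KO and 2 in PDX1 KO, against 0.424% and 14.4% of all genes called. The reduced set called 1 of 7 higher in WT and 1 in PAX6 KO, against 1.69% and 6.02%. In PDX1 KO, 6 of 8 liver, 3 of 7 duct and progenitor and 4 of 9 gut markers were called higher in the full set, against 9.09% of all genes. Of 10 islet endocrine markers 2 were higher and 2 lower, and of 13 neural markers 0 were higher and 1 lower. The median log2 difference of the islet markers was 0.17 in the full set and -0.70 in the reduced set. That of the neural markers was -0.60 and -0.30. The reduced set holds 1 PDX1 KO ISL1 OE library. The islet sum was 34680 CPM in replicate 2 and 162900 CPM in replicate 4 of PDX1 KO ISL1 OE. The liver sum differed between the PDX1 KO ISL1 OE libraries, at 8836 CPM in replicate 2 and 33470 CPM in replicate 4. The part of all these markers in the HOX differences was not tested. In PDX1 KO cells, HOXA2 was at 3.76, 4.59 and 3.12 CPM with BFP and at 9.95 and 11.8 CPM with the ISL1 vector. Both ISL1 OE libraries were above all BFP libraries, and the log2 difference was 1.51 ± 0.30 (2.84-fold, adjusted p = 0.00422 by edgeR). HOXA2 remained called without any 1 of the 5 libraries, and in the reduced set at 1.40 ± 0.27 (adjusted p = 0.00294).

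HOXA5 was at 9.55 and 21.7 CPM with the ISL1 vector in PDX1 KO cells, and its log2 difference from BFP was 2.01 ± 0.39 (4.01-fold, adjusted p = 0.00407). In the reduced set, without replicate 4, the difference was 1.32 ± 0.31 (adjusted p = 0.0122), while leaving replicate 4 alone out of the full set ended the call (adjusted p = 0.106). HOXA3 was at 27.6 CPM in replicate 2 and at 10 CPM in replicate 4, with a difference of 1.27 ± 0.41 (adjusted p = 0.0497 by edgeR, and 0.0567 with the replicate block), and 1.85 ± 0.37 (adjusted p = 0.00361) in the reduced set. Its full-set call ended without any 1 library but replicate 4 (highest adjusted p = 0.44, without replicate 2).

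HOXD1 and HOXC5 lost their call without replicate 4. HOXC5 was at 0.971 CPM in replicate 2 and 7.60 CPM in replicate 4, against 0.972, 0.362 and 0.180 CPM with BFP. Its difference went from 3.07 ± 0.75 (adjusted p = 0.0136) to 0.97 ± 0.68 (adjusted p = 0.396 by edgeR) without replicate 4. HOXD1 went from 2.88 ± 0.66 (adjusted p = 0.00982) to 1.19 ± 0.51 (adjusted p = 0.151). In all, 5 of 23 members were called in PDX1 KO, all higher (21.7%), against 14.4% of all genes (9.09% higher), 3 of 25 in the reduced set (12%, against 11.2% of all genes, 6.9% higher), and 0 where only the libraries of these 2 groups were fitted.

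In WT, ISL1 KO and PAX6 KO cells no member was called between vectors in the full set, against 0.0361%, 0.424% and 0.415% of all genes. At an unadjusted p under 0.05 by edgeR, 3, 4 and 4 members passed, against 3.8%, 7.92% and 10.7% of all genes. DESeq2 called 0, 0 and 2 (HOXA2 and HOXA5 in PAX6 KO), against 0.284%, 1.79% and 2.15% of all genes. HOXA5 was at 10.9 and 13.8 CPM against 6.83 and 3.43 CPM in WT, at 16.6, 13.7 and 11.4 against 9.99, 7.16 and 6.35 in ISL1 KO, and at 18.8, 14.4 and 36.1 against 10.02, 11.1 and 8.62 in PAX6 KO, with the ISL1 vector first. Its libraries did not overlap between vectors in any of the 4 genotypes, but the share of all genes that separate in this way was not counted. The log2 difference was 1.27 ± 0.44 in WT, 0.83 ± 0.35 in ISL1 KO and 1.22 ± 0.35 in PAX6 KO (adjusted p 0.846, 0.516 and 0.175 by edgeR).

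In the reduced set HOXA5 was called in WT (adjusted p = 0.0369) and ISL1 KO (0.044), and HOXA2 in PAX6 KO (0.79 ± 0.22, adjusted p = 0.0449), 1 of 25 members each, all higher (4%), against 1.69%, 5.92% and 6.02% of all genes (0.796%, 2.35% and 1.84% higher). Each of these 3 calls ended in some fits without 1 library (highest adjusted p 0.424, 0.191 and 0.349). Whether the vector difference itself varied between genotypes was not tested. The vector difference of HOXB2 in ISL1 KO cells was -0.03 ± 0.56, which does not show that its level was unchanged.

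**Figure D5:**
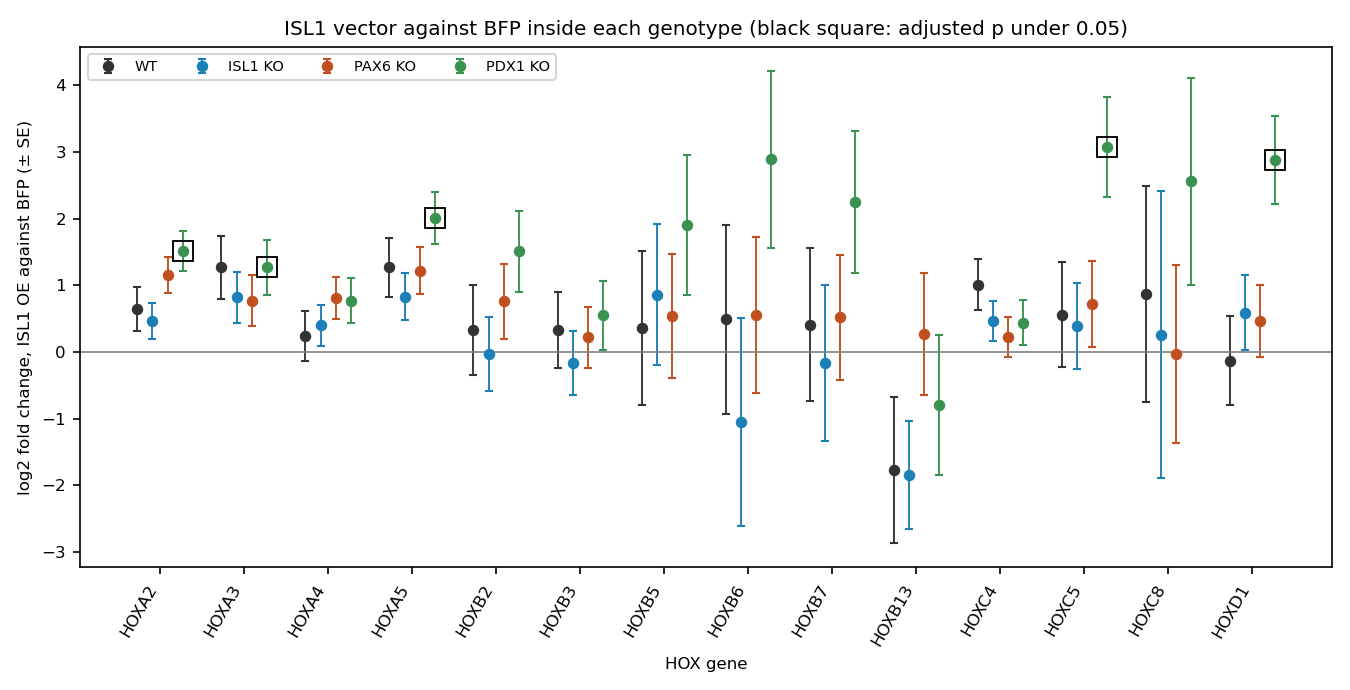
log2 fold change (± SE) of ISL1 OE against BFP libraries for the 14 members that reached 1 CPM in a group, inside each genotype (colours), from the fit of all 21 libraries; black squares mark an adjusted p under 0.05. HOXA2 to HOXA5 and HOXC4 lie above 0 in all 4 genotypes, and squares appear in PDX1 KO only.

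Some non-coding RNAs of the HOXA cluster were higher in ISL1 KO BFP than in WT BFP, as HOXA2 and HOXA3 were. HOXA4 was not, at a mean of 7.38 CPM against 9.62 CPM in WT BFP. Of 18 listed non-coding RNAs within the clusters, 7 were tested. HOTAIRM1, which lies at the HOXA2 end of the cluster, had means of 18.5 ± 3.74 CPM (SD, n = 2) in WT BFP, 37.9 ± 4.08 (n = 3) in ISL1 KO BFP, 44.2 ± 2.04 (n = 3) for PAX6 KO BFP and 20.2 ± 0.795 (n = 3) for PDX1 KO BFP. It exceeded WT by 1.04 ± 0.28 in ISL1 KO (adjusted p = 0.0366) and by 1.26 ± 0.28 in PAX6 KO (adjusted p = 0.0144 by edgeR). With the ISL1 vector it exceeded BFP by 1.31 ± 0.25 in PAX6 KO (adjusted p = 0.0278) and 1.6 ± 0.27 in PDX1 KO (adjusted p = 0.00162). In ISL1 KO against WT with BFP, 3 of the 7 rose (HOXA-AS3, HOTAIRM1 and HOXA-AS2) and 1 fell (HAGLR), against 6.53% of all genes called. The reduced set called 3 higher and 3 lower of 8, against 28.5% of all genes, with HOXB-AS1 (-2.23 ± 0.38, adjusted p = 0.000405) and HOXB-AS3 (-5.53 ± 1.47, adjusted p = 0.0101 by edgeR) now among the lower. HOXA-AS2 and HOXA-AS3 overlap HOXA3 on the other strand, so their reads and those of HOXA3 cannot be told apart.

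Of the 9 HOX cofactors, all tested, PBX3 (-1.06 ± 0.23, adjusted p = 0.00959) and MEIS1 (-1.12 ± 0.27, adjusted p = 0.0212) fell in ISL1 KO against WT with BFP by edgeR, against 6.53% of all genes called. The reduced set called 1 higher (PKNOX2, 2.42 ± 0.33, adjusted p = 6.48e-05) and 3 lower there, against 28.5% of all genes. PBX3 was at 12.4 to 13.9 CPM in ISL1 KO BFP and 25.3 to 29.4 CPM in WT BFP. In PAX6 KO against WT with BFP 1 was higher in the full set and 5 in the reduced set, against 6.65% and 28.8% of all genes called. In PDX1 KO against WT with BFP none was called in the full set, against 11.4% of all genes. There 2 were higher in the reduced set, against 33.3%. PAX6 KO exceeded ISL1 KO for MEIS1, MEIS3 and PBX3. In that BFP comparison 4 of the 9 were called higher in the full set, against 1.79% of all genes.

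Of 16 retinoic acid and caudal genes, 14 were tested. In ISL1 KO against WT with BFP, 2 rose and 3 fell, against 6.53% of all genes called, and 3 rose and 5 fell in the reduced set, against 28.5%. ALDH1A3, ALDH1A2 and ALDH1A1, the enzymes that make retinoic acid, fell by 4.01 ± 0.77 (adjusted p = 0.00462), 2.29 ± 0.63 (0.0377) and 1.5 ± 0.31 (0.00716) on the log2 scale by edgeR, and TBXT rose by 5.2 ± 0.96 (0.0035). ALDH1A3 was at 0.187 to 0.420 CPM in ISL1 KO BFP and 5.11 to 5.42 CPM in WT BFP. In PAX6 KO 1 rose and 1 fell (ALDH1A3), against 6.65% of all genes called. In PDX1 KO, TBXT rose while CDX1 and ALDH1A1 fell, against 11.4% of all genes called. The reduced set called 4 higher and 3 lower in PAX6 KO (28.8% of all genes) and 3 higher and 7 lower in PDX1 KO (33.3% of all genes). CDX1, a caudal factor of the gut and 1 of 3 ParaHox genes tested, fell by 3.88 ± 1.08 (adjusted p = 0.0272) in PDX1 KO, from a mean of 7.79 ± 4.68 CPM (n = 2) in WT BFP to 0.531 ± 0.575 CPM (n = 3).

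None of the 20 Polycomb and Trithorax genes was called in the 6 comparisons of a knockout with WT in the full set. The shares of all genes called were 6.53%, 6.65% and 11.4% in ISL1 KO, PAX6 KO and PDX1 KO with BFP. With ISL1 OE they were 4.13%, 4.26% and 0.78%. In the reduced set 5 were higher and 2 lower in ISL1 KO against WT with BFP, 4 were higher in PAX6 KO, and 3 were higher and 2 lower in PDX1 KO, against 28.5%, 28.8% and 33.3% of all genes called. Of the 30 genes that flank the clusters 26 were tested, and 1, 1 and 3 were called in ISL1 KO, PAX6 KO and PDX1 KO against WT with BFP, against 6.53%, 6.65% and 11.4% of all genes. The reduced set called 4 higher and 5 lower, 6 higher and 4 lower, and 6 higher and 5 lower of 27, against 28.5%, 28.8% and 33.3%. Their full-set median log2 differences were -0.02, 0.01 and 0.09.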

How the data were processed

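The authors deposited estimated counts per gene for each library and sequencing lane, and TPM per gene and transcript. The submitters' processing notes name STAR 1.6.1 and GRCh38; the counting program, annotation and filters are not given in the sources used here. For each of 21 libraries the 4 lanes (lowest correlation 0.9973) were added up and rounded to whole numbers, and TPM was averaged over lanes. Of the sample columns, 84 were used, and 12 that belong to no library of the submitters' column map were not used. Symbols came from GENCODE, and 1 further HOX gene by the rule is not reported here. The members, gene lists and libraries left out in the reduced set were chosen with earlier results of these data known.

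Genes passing edgeR's expression filter (22184) were scaled by TMM and fitted in 1 quasi-likelihood model of 8 groups with edgeR 4.0.16 in R 4.3.3 (common dispersion 0.114), tested on simulated data. p-values were two-sided, adjusted over all genes tested by Benjamini-Hochberg, and called under 0.05. SE is the absolute log2 fold change over the square root of F. Depth of 40959445 to 66818593 counts limits precision below about 1 CPM. Promoter motifs were counted on both strands, and TGATNNAT may overlap TAAT.

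Members that reached 1 CPM in a group are given by library in the BFP groups, and fold changes are given for called members and some abundant ones. Alternatives were other scalings, DESeq2 1.42.0, no filter, only the 2 groups compared, the reduced set, a replicate block and leaving out each library. A fit of only BFP libraries, and leaving out each library from the reduced set, were added after seeing the data. Same-numbered BFP and ISL1 OE libraries deviated together (r = 0.431, 0.304 and 0.641 in ISL1 KO, and 0.264, 0.49 and 0.546 in PAX6 KO), so numbers were taken to pair samples there. WT and PDX1 KO share 1 number each, which allows no block.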

Additional observations from a re-analysis of the deposited data

How the results depend on the processing

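Of the 24 member calls of the full set, none changed direction under any alternative run. The call held for 24 under DESeq2, 23 under relative log expression scaling, 22 in the reduced set, 21 each with library size alone and with no filter, and 18 with only the groups compared. Just 5 calls held without each single library: HOXD1 in PDX1 KO against WT, PAX6 KO against ISL1 KO and PDX1 KO against PAX6 KO, and HOXA2 in PDX1 KO against ISL1 KO and between vectors in PDX1 KO. The cause of the changes below was not tested. Comparisons without the PAX6 KO ISL1 OE and PDX1 KO ISL1 OE groups used the same libraries in the full and reduced sets.

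The counts of called members follow in 1 order: ISL1 KO, PAX6 KO and PDX1 KO against WT with BFP, the same 3 with ISL1 OE, PAX6 KO against ISL1 KO, PDX1 KO against ISL1 KO, PDX1 KO against PAX6 KO, then ISL1 OE against BFP in WT and in the ISL1, PAX6 and PDX1 knockouts. The full set gave 4, 1, 1, 2, 1, 0, 4, 3, 3, 0, 0, 0 and 5. The reduced set gave 11, 5, 3, 11, 2, 3, 10, 10, 11, 1, 1, 1 and 3. DESeq2 gave 10, 1, 2, 8, 2, 0, 7, 5, 6, 0, 0, 2 and 6, where it called 11.6%, 11.6%, 16.7%, 9.06%, 8.42%, 3.07%, 4.88%, 10.5%, 7.28%, 0.284%, 1.79%, 2.15% and 22.7% of all genes. With only the groups compared the counts that moved by over 1.5 times were 11 and 2 (ISL1 KO and PDX1 KO against WT, BFP), 13 and 0 (ISL1 KO and PAX6 KO against WT, ISL1 OE), 10, 10 and 9 between knockouts, 2 between vectors in ISL1 KO and 0 in PDX1 KO. With only BFP libraries they were 9, 5 and 3 against WT and 8, 10 and 9 between knockouts. Library size alone gave 1 for PDX1 KO against ISL1 KO.

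Leaving out 1 library gave, in the same order, 0 to 0, 0 to 1, 1 to 2, 0 to 1, 0 to 1, 0 to 0, 1 to 3, 1 to 3, 1 to 3, 0 to 0, 0 to 0, 0 to 1 and 2 to 11 calls. In the reduced set it gave 7 to 10, 2 to 5, 1 to 7, 5 to 10, 0 to 1, 2 to 2, 5 to 9, 8 to 10, 6 to 14, 0 to 2, 0 to 1, 0 to 3 and 3 to 3.

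With the replicate block the counts were 4, 1, 1, 2, 1, 0, 4, 2, 2, 0, 0, 0 and 4. The pairing ended 4 calls given beside their results and added HOXB5 in ISL1 KO against WT with BFP (adjusted p = 0.0431 by edgeR). It changed no other call. Depth limits the 15 untested members, which had at most 14 counts.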
